A study of Mus musculus with 6 samples.

Results

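The SWI/SNF complexes are chromatin remodellers that use ATP to slide or evict nucleosomes, and their subunits are assembled around an ATPase, *Smarca2* or *Smarca4*. Core subunits such as *Smarcb1*, *Smarcc1*, *Smarcc2* and *Smarce1* are shared by the BAF and PBAF forms of the complex. An ARID subunit tells these forms apart, with *Arid1a* or *Arid1b* in the BAF complex and *Arid2* together with *Pbrm1* in the PBAF complex. In the uterus *Arid1a* is needed for endometrial function in pregnancy, and ARID1A is frequently lost in cancers that arise with endometriosis. These 10 genes were taken as a list of names and not by a rule on their values, although earlier results of these data were known. All 10 were found among the 20145 genes named on the arrays.

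The mRNA of these subunits was measured in 3 whole uterus samples of Sox17f/f mice, labelled wild type, and 3 of Sox17ed/ed mice at gestation day (GD) 3.5 of natural pregnancy, with embryos flushed out, on 6 Agilent 1-colour arrays. Both genotypes carry the floxed *Sox17* allele, and Sox17ed/ed mice also carry 1 copy of an iCre recombinase at the *Ltf* locus (LtfiCre/+ Sox17 f/f), which deletes *Sox17* from the uterine epithelium after puberty. No iCre allele was present in the Sox17f/f controls, so effects of the recombinase and of *Sox17* loss cannot be told apart. Females were mated at 8 to 10 weeks of age. The labels number the arrays as replicates 1 to 3 of a genotype without stating that each came from its own mouse. The p-values therefore set a difference against the spread between these samples, which may not be that between mice. Whole tissue was measured, so a lower signal from fewer cells of a type and from less RNA per cell cannot be told apart, and a change in the epithelium alone is diluted by stroma and muscle. The comparison asks whether subunit mRNA differed between uteri with and without epithelial *Sox17*.

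Signal is given as normalized log2 intensity, so that a difference of 1 is a 2-fold change, and a log2 fold change is the Sox17ed/ed mean minus the Sox17f/f mean. Of 59305 spots, 60.7% to 65.7% were well above background on the Sox17f/f arrays and 56.8% to 59.4% on the Sox17ed/ed arrays, and 0 were saturated. All arrays lay on 1 slide scanned once. Each genotype filled a line of its own there, so slide position and genotype cannot be told apart. *Sox17* itself had a signal of 12.21, 12.07 and 12.22 in Sox17f/f uteri and of 9.75, 9.59 and 9.81 in Sox17ed/ed uteri, as the labels imply (log2 fold change -2.45 with an SE of 0.09, adjusted p = 2.66e-05 by limma). Among glandular epithelium markers all 5 tested were lower in Sox17ed/ed uteri past the thresholds given below (the other, *Spink3*, was not tested). The log2 of their summed signal was 13.46 to 14.34 in Sox17f/f and 6.88 to 7.47 in Sox17ed/ed uteri. *Lif* and *Prss29* were well above background on 3 Sox17f/f and 0 Sox17ed/ed arrays, and *Cxcl15* on 3 and 2. *Lif* and *Prss29* passed the signal filter only through the Sox17f/f arrays, so their calls do not count as separate results. The size of their fall is not known, since their Sox17ed/ed values were at background. Of 6 endothelium markers 4 were lower at an adjusted p under 0.05 (log2 of the summed signal 13.08 to 13.10 against 12.72 to 12.80), as were 2 of 6 smooth muscle markers (18.84 to 18.98 against 18.38 to 18.65). Of 7 epithelium markers 4 were higher and 1 lower (15.37 to 15.49 against 15.58 to 15.87). Of 5 stratified squamous markers tested 2 were higher past the thresholds (11.29 to 11.56 against 11.69 to 11.89). These were *Krt5* and *Krt15*, each well above background on 0 Sox17f/f arrays, so they passed the signal filter only through the Sox17ed/ed arrays. *Trp63*, the basal cell marker, was not higher on the probe that stood for it (log2 fold change -0.12, limma adjusted p = 0.468). That probe had a mean signal of 11.38 in Sox17f/f and 11.26 in Sox17ed/ed uteri. By quantitative PCR the study found more *Trp63* mRNA in Sox17ed/ed than in Sox17f/f uteri. The array value is therefore not read as a lack of change in *Trp63* mRNA. Whether the probe follows *Trp63* of basal cells was not tested. Of 5 leukocyte markers tested 1 was higher at an adjusted p under 0.05 (13.37 to 13.53 against 13.72 to 13.78), and of 7 stroma markers 1 was higher and 1 lower (17.72 on all Sox17f/f arrays against 17.46 to 17.63). Of 6 proliferation markers 0 passed, with a log2 summed signal of 13.84 to 14.17 in Sox17f/f and 14.35 to 14.49 in Sox17ed/ed uteri. Over all genes tested, 6.04% were higher and 6.47% lower past the thresholds. At an adjusted p under 0.05, 8.84% were higher and 10.1% lower. A single gene called in a list is therefore not read as a change of that cell type. The part of these tissue and signal differences in the subunit values was not tested.

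The RefSeq promoter windows of the subunits are shown first because they are the stretches searched for a SOX motif. Windows of 250 bases before an annotated start (RefSeq, GRCm38.p6) were matched by symbol for 8 of the 10 genes, with 2 windows for *Arid1a*, and *Arid2* and *Smarce1* were not analysed here. The 3 windows that overlap no annotated gene are printed 5′ to 3′ on the strand of the gene, with each CG dinucleotide in capitals.
*Arid1a*, chr4:133756770-133757019, minus strand: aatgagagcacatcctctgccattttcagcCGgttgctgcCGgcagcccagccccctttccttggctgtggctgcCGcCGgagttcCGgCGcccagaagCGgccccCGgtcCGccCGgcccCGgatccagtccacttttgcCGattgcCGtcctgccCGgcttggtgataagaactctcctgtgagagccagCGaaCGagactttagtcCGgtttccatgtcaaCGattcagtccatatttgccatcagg
*Smarcb1*, chr10:75921615-75921864, minus strand: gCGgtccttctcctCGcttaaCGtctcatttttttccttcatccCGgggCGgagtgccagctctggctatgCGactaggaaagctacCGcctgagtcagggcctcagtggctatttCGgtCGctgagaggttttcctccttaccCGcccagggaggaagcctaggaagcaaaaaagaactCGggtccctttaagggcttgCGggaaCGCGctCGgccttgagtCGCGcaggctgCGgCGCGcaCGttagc
*Smarcc1*, chr9:110131774-110132023, plus strand: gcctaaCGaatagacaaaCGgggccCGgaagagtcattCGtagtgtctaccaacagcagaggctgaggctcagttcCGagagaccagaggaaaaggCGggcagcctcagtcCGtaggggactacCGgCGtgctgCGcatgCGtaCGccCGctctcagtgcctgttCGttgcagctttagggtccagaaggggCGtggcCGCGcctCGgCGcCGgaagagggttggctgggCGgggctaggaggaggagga
The 9 windows held 18 to 40 CG dinucleotides, with a median of 28, against a median of 6 over all 32851 windows of the same length, and 7.61% of all windows held 28 or more. Their G and C content was 59.6% to 81.6%, against a median of 52.4% over all windows. The letters ACAAT, the core bound by the HMG domain of SOX factors, were searched on both strands (ATTGT on the printed strand) and were found in 0 of the 9 windows, against 27.7% of all windows. The motif is rich in A and T, and all 9 windows were above the median in G and C. No comparison with windows of like G and C content was made, so these shares do not show a lack of motifs particular to the subunits. These counts describe the letters of short windows and not binding by SOX17.

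No subunit changed past the thresholds of the study's methods, an absolute fold change of 1.4 or more at an unadjusted p under 0.01. All 10 genes were measured well above background on all 6 arrays, and 19 of their 20 probes were tested. In the limma fit over 14847 genes, 0 of the 10 subunits passed these thresholds, against 12.5% of all genes tested (6.04% higher and 6.47% lower). At an unadjusted p under 0.05 there were 3, *Arid1b*, *Arid2* and *Smarcc2*, against 33.9% of all genes. At an adjusted p under 0.05 there was 1, *Arid1b*, against 18.9% of all genes (8.84% higher and 10.1% lower). Log2 fold changes lay between -0.23 and 0.28. Their absolute log2 fold changes had a median of 0.10, against 0.17 over all genes tested, and the SD between arrays of a genotype had medians of 0.09 and 0.12. In sign 8 were higher and 2 lower, against 7386 higher and 7461 lower over all 14847 genes. With the mean of a gene's probes *Smarcc1* (-0.12) and *Smarce1* (-0.0045) were lower as well. For 4 of the 10 the arrays of the genotypes did not overlap, against 40.6% of all genes. On the brightest probe of each gene, the 95% confidence interval excluded changes of 1.4-fold or more, up or down, for 9 of the 10. The share over all genes was 56.9%. In a fit of single probes it did so for 16 of the 19 tested probes, and the exceptions were probes of *Arid1b*, *Smarcc1* and *Smarcc2*.

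**Figure D1:**
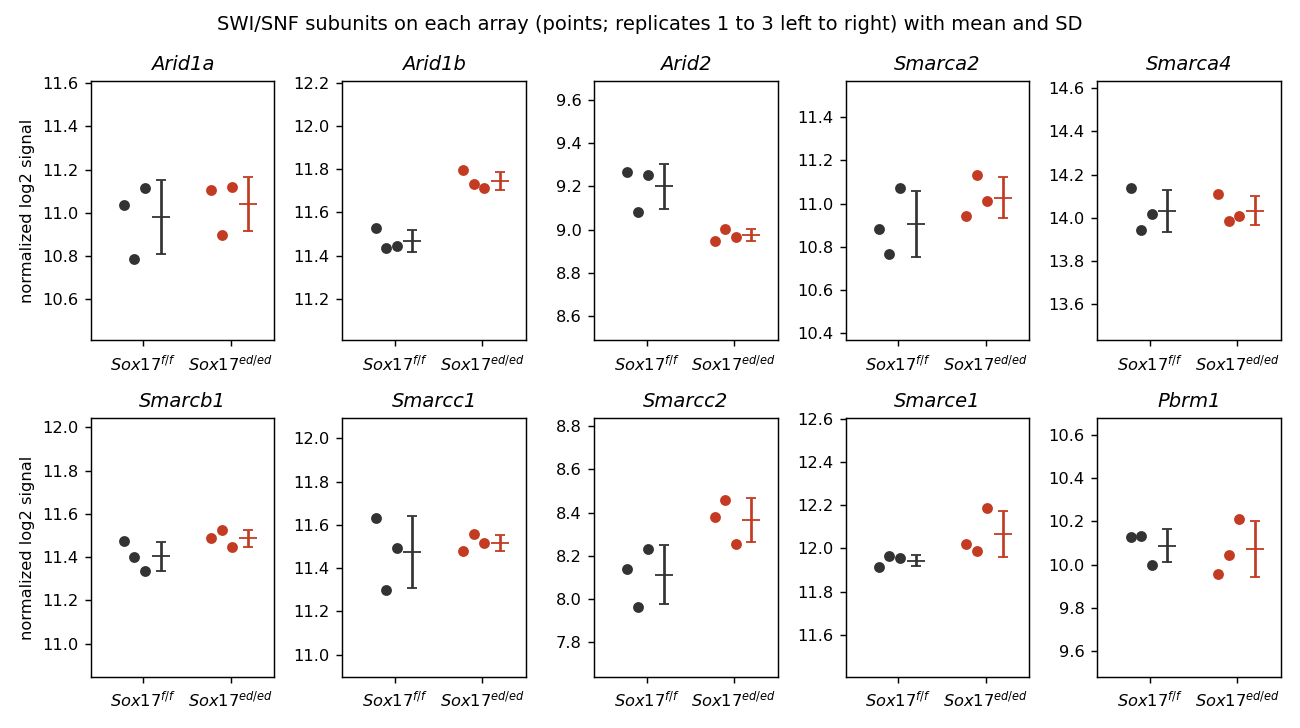
Normalized log2 signal of the 10 SWI/SNF subunits (y axis, every panel spanning the same range of log2 units) on the 3 Sox17f/f arrays (black) and the 3 Sox17ed/ed arrays (red), with the mean and SD of each genotype beside the points. The arrays of the genotypes overlapped for 6 genes and lay apart for *Arid1b*, *Arid2*, *Smarcc2* and *Smarce1*.

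Of the ARID subunits, which bind DNA and tell BAF from PBAF, *Arid1b* was the gene that rose. Its normalized log2 signal was 11.53, 11.43 and 11.45 in Sox17f/f uteri and 11.79, 11.73 and 11.71 in Sox17ed/ed uteri. Every Sox17ed/ed array lay above every Sox17f/f array (p = 0.1 in a two-sided exact permutation test, which cannot go lower with 3 arrays a genotype). The rise was 1.21-fold, a log2 fold change of 0.28 (SE 0.06, 95% confidence interval 0.12 to 0.43, limma adjusted p = 0.0303). The adjusted p rose above 0.05 with the replicate number as a block (0.0853), in a fit of each probe on its own (0.0626), and without any 1 of the 6 arrays (0.0630 to 0.0954). The other *Arid1b* probes gave 0.23 (95% confidence interval -0.07 to 0.54) and, at a low signal, -0.01.

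*Arid1a* had a normalized log2 signal of 11.04, 10.79 and 11.12 in Sox17f/f uteri and of 11.10, 10.90 and 11.12 in Sox17ed/ed uteri. The ranges of the genotypes overlapped almost entirely, with replicate 2 the lowest in both. On the linear scale the Sox17ed/ed level was 1.04 times the Sox17f/f level (95% interval 0.862 to 1.26, adjusted p = 0.754 by limma). Its second probe, at 9.64, 9.70 and 9.65 against 9.76, 9.66 and 9.90, had a log2 fold change of 0.11 (95% confidence interval -0.10 to 0.33). Without Sox17f/f replicate 2 the value of the brighter probe was -0.04. On both probes the arrays of the genotypes overlapped.

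*Arid2*, the ARID subunit of PBAF, had a signal of 9.27, 9.08 and 9.25 in Sox17f/f uteri and of 8.95, 9.005 and 8.97 in Sox17ed/ed uteri on its brighter probe. The groups did not overlap, and the log2 fold change was -0.23 (SE 0.07, 95% confidence interval -0.41 to -0.05, adjusted p = 0.0858 by limma). The other tested probe gave the opposite sign, 0.12 (95% confidence interval -0.15 to 0.38), with 8.94, 8.93 and 8.93 against 8.90, 8.996 and 9.26. The remaining *Arid2* probe was at background level on all 6 arrays and was not tested. With normexp background correction the other probe was the brighter one, and the value for the gene became 0.15.

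*Pbrm1*, the bromodomain subunit of PBAF, had a signal of 10.13, 10.13 and 10.00 in Sox17f/f uteri and of 9.96, 10.04 and 10.21 in Sox17ed/ed uteri. These ranges overlapped, and the log2 fold change was -0.02 (95% confidence interval -0.23 to 0.20, limma adjusted p = 0.923). A dimmer probe gave -0.16 (95% confidence interval -0.36 to 0.03), with its Sox17f/f arrays at 7.73, 7.68 and 7.59 and its Sox17ed/ed arrays at 7.58, 7.48 and 7.44. On that probe each Sox17ed/ed array lay below each Sox17f/f array, and the nearest arrays of the genotypes, at 7.58 and 7.59, almost touched.

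The ATPases, which hydrolyse ATP and move the nucleosome, did not change past any threshold. *Smarca4* had a signal of 14.14, 13.94 and 14.02 in Sox17f/f uteri and of 14.11, 13.98 and 14.01 in Sox17ed/ed uteri. Its linear level in Sox17ed/ed uteri was 1.0002 times that in Sox17f/f uteri (95% confidence interval 0.878 to 1.14, limma adjusted p = 0.998), the smallest change of the 10 genes. A second probe, annotated to another RefSeq transcript of *Smarca4*, gave a log2 fold change of 0.05 (95% confidence interval -0.14 to 0.25). *Smarca2*, the alternative ATPase, had 10.88, 10.77 and 11.07 in Sox17f/f uteri and 10.94, 11.13 and 11.01 in Sox17ed/ed uteri. Its log2 fold change was 0.12 (95% confidence interval -0.12 to 0.37, limma adjusted p = 0.444) on a single probe.

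Of the core subunits, *Smarcc2* had the largest difference, on 1 probe of low signal. It measured 8.14, 7.97 and 8.23 in Sox17f/f uteri and 8.38, 8.46 and 8.26 in Sox17ed/ed uteri. The nearest arrays of the groups almost touched, and the log2 fold change of 0.25 did not pass (95% confidence interval 0.02 to 0.49, limma adjusted p = 0.124). With the brightest probe for each gene, *Smarcc2* was the 1 subunit whose interval reached past a fold change of 1.4, at 1.401-fold. *Smarcc1*, its paralogue and like it a scaffold of the complex, had 11.63, 11.30 and 11.49 against 11.48, 11.56 and 11.52. Here the Sox17ed/ed arrays fell inside the range of the Sox17f/f arrays, and the log2 fold change was 0.04 (95% confidence interval -0.19 to 0.28, limma adjusted p = 0.799). The dimmer *Smarcc1* probes gave -0.11 (95% confidence interval -0.30 to 0.09) and -0.29 (-0.63 to 0.05). Neither passed, and the interval of the second reached past a 1.4-fold decrease.

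*Smarcb1*, the subunit lost in rhabdoid tumours, overlapped between the genotypes. Its signal was 11.47, 11.40 and 11.34 in Sox17f/f uteri and 11.49, 11.53 and 11.44 in Sox17ed/ed uteri, with a log2 fold change of 0.08 (95% confidence interval -0.08 to 0.24, limma adjusted p = 0.436). *Smarce1*, an HMG-box subunit, had 11.91, 11.96 and 11.96 in Sox17f/f uteri and 12.02, 11.99 and 12.19 in Sox17ed/ed uteri. The *Smarce1* arrays did not overlap, but the log2 fold change of 0.12 did not pass (95% confidence interval -0.06 to 0.30, limma adjusted p = 0.317), and its other probe gave -0.13 (95% confidence interval -0.35 to 0.09). Of the 7 subunits with several tested probes, 4 had probes of opposite sign, *Arid1b*, *Arid2*, *Smarcc1* and *Smarce1*. Over the 19 probes tested, log2 fold changes ranged from -0.29 to 0.28, and in the fit of single probes 0 passed the thresholds, 0 had an adjusted p under 0.05 and 3 an unadjusted p under 0.05. Over all 32734 probes of that fit the shares were 9.86%, 10.6% and 27.1%.

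**Figure D2:**
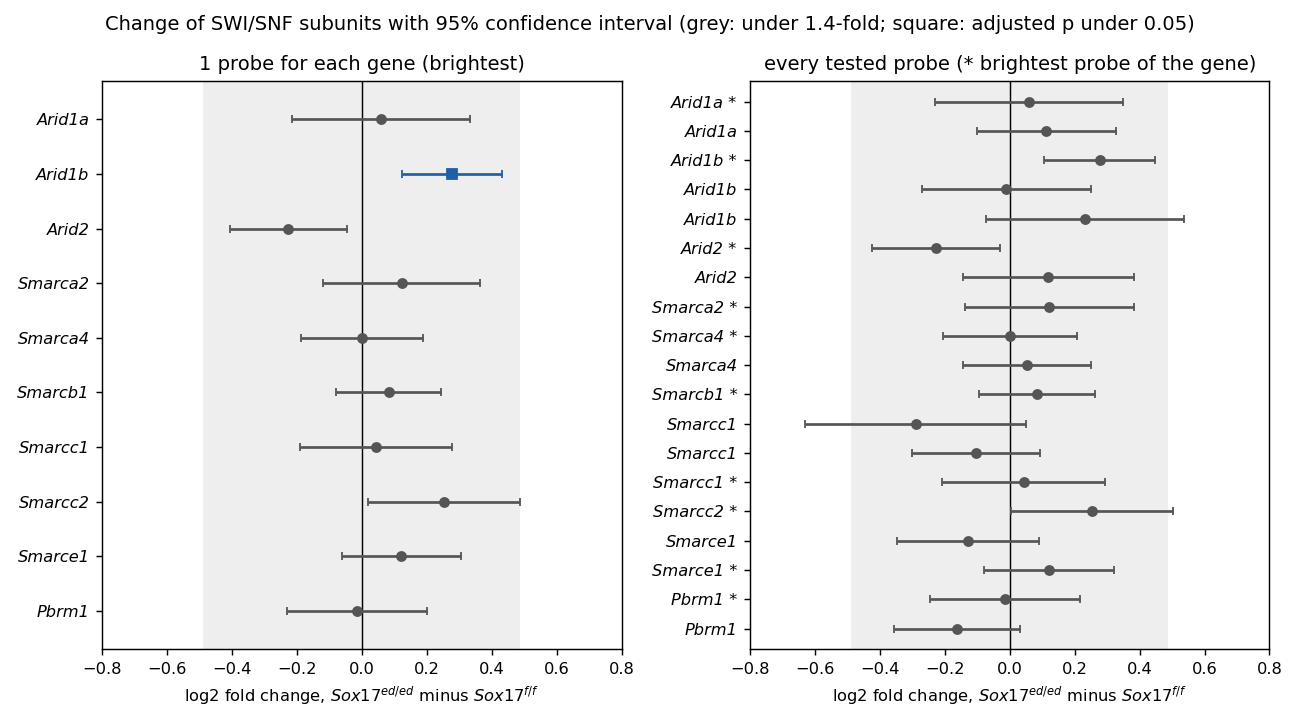
Log2 fold change of the SWI/SNF subunits in Sox17ed/ed relative to Sox17f/f uteri (x axis) with the 95% confidence interval of the limma fit as a bar, for 1 probe per gene (left) and for all 19 tested probes (right). All points lay inside the grey band that marks changes under 1.4-fold, and the square marks *Arid1b*, the 1 gene with an adjusted p under 0.05.

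Paralogues that take the same place in a complex were compared within each array, since a shift from one to the other could leave the total unchanged. The log2 signal of 2 genes cannot be set against each other as levels, so only the change of their difference between genotypes was read. Over 4 pairs tested, none reached a Benjamini-Hochberg adjusted p under 0.2 in an exact permutation test, which cannot go below 0.1 before adjustment with 3 arrays against 3. The difference *Smarcc1* minus *Smarcc2* changed by -0.21 on the log2 scale in Sox17ed/ed uteri, with Sox17f/f arrays at 3.49, 3.33 and 3.26 and Sox17ed/ed arrays at 3.10, 3.10 and 3.26 (exact p = 0.1, adjusted 0.2). *Arid1a* minus *Arid2*, which contrasts BAF with PBAF, was higher by 0.29, with 1.77, 1.71 and 1.86 against 2.15, 1.89 and 2.15 (exact p = 0.1, adjusted 0.2). Both pairs had no overlap between genotypes, although for *Smarcc1* minus *Smarcc2* the nearest arrays were equal to 2 decimals. Single genes did not overlap in 40.6% of all tested, and no such share was computed for differences of 2 genes. The *Arid1a* minus *Arid2* change rested on the brighter *Arid2* probe and was -0.10 where normexp correction selected the other. *Arid1a* minus *Arid1b* changed by -0.22 (exact p = 0.2, adjusted 0.267) and *Smarca2* minus *Smarca4* by 0.12 (exact p = 0.4, adjusted 0.4), both with overlapping arrays.

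**Figure D3:**
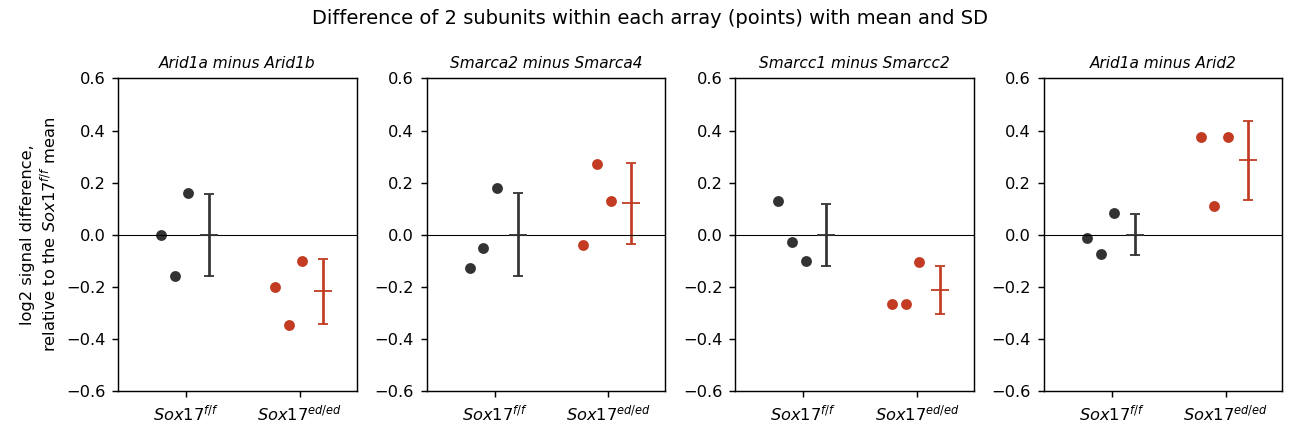
Difference of the normalized log2 signals of 2 SWI/SNF subunits within each array, relative to the mean of the Sox17f/f arrays (y axis), for 4 pairs, with Sox17f/f arrays in black, Sox17ed/ed arrays in red and the mean and SD beside them. The genotypes overlapped for *Arid1a* minus *Arid1b* and for *Smarca2* minus *Smarca4*, and the changes of all 4 pairs were between -0.22 and 0.29.

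A further 20 genes of the family were described as a list, and none of those tested passed the thresholds of the methods either. All 20 were on the array and 19 were tested, since *Actl6b*, an actin-like subunit of the neuronal complex, was at background level on all 6. Of the 19, 0 passed the thresholds of the methods, 4 had an unadjusted p under 0.05, and 2 had an adjusted p under 0.05, 1 higher and 1 lower. The shares over all genes were 12.5%, 33.9% and 18.9% by these rules. Their median log2 fold change was 0.06, and their median absolute log2 fold change was 0.16, against 0.07 and 0.10 for the 10 subunits above and -0.0016 and 0.17 over all genes. *Smarcd2*, a core subunit of the SMARCD group, rose 1.35-fold, with 10.66, 10.85 and 10.89 in Sox17f/f uteri and 11.25, 11.14 and 11.30 in Sox17ed/ed uteri (log2 fold change 0.43 with an SE of 0.09, adjusted p = 0.0202 by limma). Its paralogues did not pass, *Smarcd1* with a log2 fold change of -0.29 (adjusted p = 0.193 by limma) and *Smarcd3* with 0.03 (adjusted p = 0.770 by limma).

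*Bcl7b*, an accessory subunit, fell in Sox17ed/ed uteri, from 10.07, 10.01 and 9.93 to 9.67, 9.71 and 9.47 (log2 fold change -0.39 with an SE of 0.09, adjusted p = 0.0295 by limma). The genotypes did not overlap for either *Smarcd2* or *Bcl7b*. With the replicate number as a block neither had an adjusted p under 0.05 (0.0574 and 0.0506), and each lost that call when 1 array was left out. For *Smarcd2* this was Sox17f/f replicate 1 (0.0582), Sox17ed/ed replicate 1 (0.0679) or Sox17ed/ed replicate 3 (0.0646), and for *Bcl7b* these 3 arrays (0.0991, 0.0698 and 0.0620) or Sox17f/f replicate 2 (0.0820). *Bcl7a*, a paralogue of *Bcl7b*, had a log2 fold change of 0.23 (limma adjusted p = 0.0650), and *Bcl7c* of 0.10. The largest value that did not pass was that of *Dpf3*, a PHD-finger subunit of low signal, with 4.68, 3.995 and 3.90 against 4.84, 4.46 and 4.996 (log2 fold change 0.58 with an SE of 0.24, adjusted p = 0.154 by limma). For *Dpf1* the spot of Sox17ed/ed replicate 1 was marked as an outlier and left out, and the value of 0.33 rests on 2 arrays of that genotype.

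**Figure D4:**
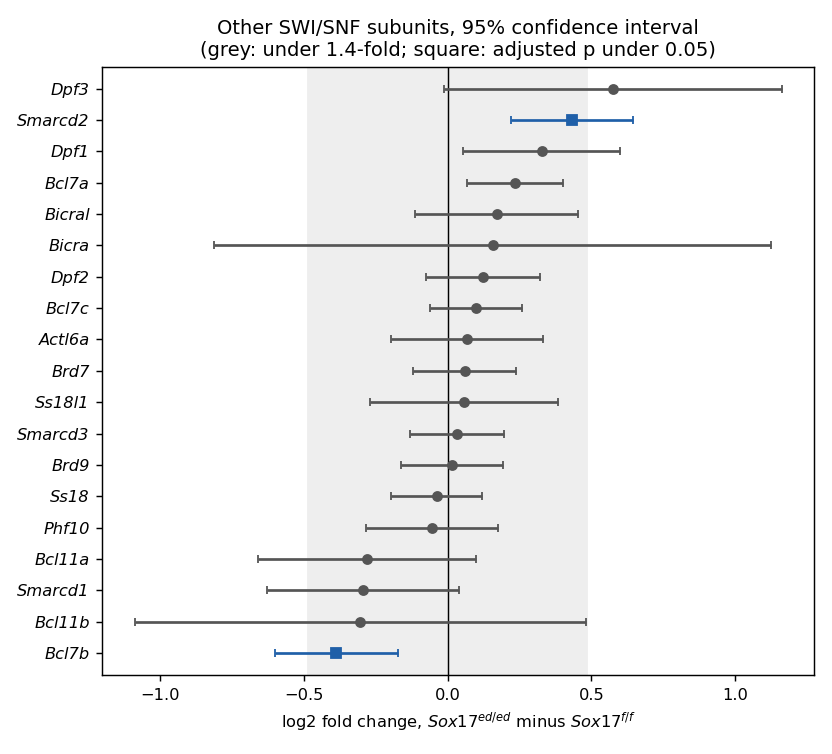
Log2 fold change in Sox17ed/ed relative to Sox17f/f uteri (x axis) of the 19 other SWI/SNF subunits tested, ordered by value, with the 95% confidence interval of the limma fit. Squares mark *Smarcd2* (0.43) and *Bcl7b* (-0.39), the genes with an adjusted p under 0.05, and the grey band marks changes under 1.4-fold.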

How the data were processed

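RNA of whole uteri, 3 samples of each genotype, was hybridised to 6 Agilent arrays, grouped by the titles in the labels. The authors deposited scanner files in which the spot intensity had been background-subtracted and detrended by Feature Extraction 11.0.1.1 per the file headers (9.1 in the submitters' processing notes), with no normalization between arrays. A deposited table of intensity values was within 0.190% of the same signal.

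Control spots and 169 to 302 outlier spots per array were left out. Log2 intensities were quantile normalized as in the study's methods. Probes had to be well above background on 3 or more arrays, with a value on 2 of each genotype. RefSeq accessions named 26582 of 55681 probes through a gene table of GRCm38.p6, and the brightest probe stood for its gene. Genotypes were compared with limma 3.58.1 (R 4.3.3), and p-values were adjusted by Benjamini-Hochberg over 14847 genes. Python 3.11.15, pandas 2.3.3, numpy 2.4.6 and matplotlib 3.10.9 read and plotted the data. Code was tested on simulated data. The number of arrays limits the precision.

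The subunits and lists were chosen with earlier results of these data known. Named genes were the 10 subunits, *Sox17*, the other subunits past either call rule and the one of largest change that was not, and remodellers past the thresholds of the methods. *Dpf1*, *Bcl7a*, *Bcl7c*, *Smarcd1*, *Smarcd3*, *Actl6b*, *Lif*, *Prss29*, *Cxcl15*, *Krt5*, *Krt15* and *Trp63* were added after their values were seen. Alternatives were a 75th percentile shift, normexp with an offset of 50 on the median spot signal (chosen after seeing the data), no filter or one on all arrays, the mean of probes, the probe of smallest p, an eBayes trend, an ordinary linear model, the deposited values, the replicate block, single probes, and leaving out each array.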

Additional observations from a re-analysis of the deposited data

How the results depend on the processing

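In every alternative tried, and without each array in turn, 0 of the 10 subunits passed the thresholds of the methods in limma. Of 160 recomputed log2 fold changes of the subunits, 146 kept their sign, 14 reversed it, and 0 reached a fold change of 1.4. The reversed values were those of *Smarca4* after a 75th percentile shift (-0.049) and after normexp (-0.056), *Arid2* after normexp (0.15), *Smarcc1* with the mean of its probes (-0.12) and the probe of smallest p (-0.29), and *Smarce1* with the mean of its probes (-0.0045). *Arid1a* minus *Arid2* reversed after normexp (-0.10). Leaving out each array in turn gave *Arid1a* -0.037 to 0.13, *Smarca4* -0.044 to 0.051, *Smarcc1* -0.045 to 0.12 and *Pbrm1* -0.085 to 0.041. With normexp, the mean of probes or the probe of smallest p, the reversals of *Arid2*, *Smarcc1* and *Smarce1* came with another choice of probe. *Smarcc1* also reversed on its own probe without Sox17f/f replicate 2 (-0.045). The cause of the other reversals was not tested.

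*Arid1b* lost its adjusted p under 0.05, which left 0 subunits in place of 1, after normexp (log2 fold change 0.20, limma adjusted p = 0.125), with no filter (0.28, 0.0510), with the mean of its probes (0.17, 0.169), and in the paired fit with a replicate block (0.28, 0.0853). Without each array in turn its log2 fold change was 0.25 to 0.30, and 0 subunits had an adjusted p under 0.05. The count of other SWI/SNF subunits with an adjusted p under 0.05 fell from 2 to 1 with no filter, to 0 in the ordinary linear model and to 0 with the replicate block, and was 0 to 2 without each array in turn. The count past the thresholds was 0 to 1 there, the 1 being *Dpf3* without Sox17f/f replicate 1. The count of other remodellers past the thresholds, 2, became 3 with no filter, 1 with the mean of probes, 4 with the probe of smallest p, 1 in the ordinary linear model and 1 with the replicate block, and was 1 to 2 without each array in turn. Same-numbered arrays had correlations of deviations of 0.06, -0.11 and -0.000095, and other-numbered arrays of -0.08 to 0.08. The labels do not say what the replicate numbers stand for. With 3 arrays a genotype these values cannot decide whether the numbers pair the samples. The planned normexp correction of the mean spot signal was not run, since the scanner output used here holds the median signal. The number of subunits with an interval within a fold change of 1.4 was 8 to 10 in all alternatives.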

Other observations

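Among chromatin regulators outside SWI/SNF, *Rbbp7* and *Smarca1* were lower in Sox17ed/ed uteri. Of 70 genes in lists of ISWI, CHD and NuRD, INO80 and SRCAP, and Polycomb group factors, 63 were tested, and 0 were higher and 2 lower in Sox17ed/ed uteri past the thresholds of the methods, against 6.04% higher and 6.47% lower over all genes. At a limma adjusted p under 0.05, 0 were higher and 5 lower (8.84% and 10.1% over all genes), *Rbbp7*, *Smarca1*, *Hdac2*, *Ep400* and *Jarid2*, of which the last 3 were chosen after their values were seen. Their median absolute log2 fold change was 0.11. *Rbbp7*, a histone-binding subunit shared by NuRD and Polycomb complexes, fell from 14.46, 14.44 and 14.45 to 13.98, 13.82 and 13.9998 (log2 fold change -0.52 with an SE of 0.07, adjusted p = 0.00503 by limma), and its change was under the fold threshold without Sox17ed/ed replicate 2 (-0.46) and with the mean of its probes (-0.48). *Smarca1*, an ISWI ATPase, fell from 9.47, 9.19 and 9.39 to 8.86, 8.98 and 8.58 (log2 fold change -0.54 with an SE of 0.13, adjusted p = 0.0349 by limma). Its change was under the fold threshold without Sox17f/f replicate 1 (-0.48) and without Sox17ed/ed replicate 3 (-0.43). Its limma adjusted p was 0.0853 with the replicate block and 0.0692 with no filter, and its adjusted p was 0.0975 in the ordinary linear model fitted with limma. The limma adjusted p was 0.108 without Sox17f/f replicate 1, 0.0754 without Sox17f/f replicate 3, 0.0827 without Sox17ed/ed replicate 1 and 0.0712 without Sox17ed/ed replicate 3. The arrays of the genotypes did not overlap for either gene. By list, 1 of 10 ISWI genes and 1 of 18 CHD and NuRD genes passed, and 0 of 13 INO80 and SRCAP genes and 0 of 22 Polycomb genes. In the same order 2, 4, 3 and 7 had an unadjusted limma p under 0.05, against 33.9% of all genes.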
